A study of Homo sapiens with 12 samples.

Results

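The genes described here are the replication-dependent histone genes, which encode the linker histones H1-1 to H1-6 and the core histones H2A, H2B, H3 and H4. They were chosen by name, as protein-coding genes with the current symbols of these families, and not by a cutoff on any measured value. Earlier results of these data were known when this choice was made. Of the 57773 genes in each count table, 35 were members: 6 linker histone genes, 9 H2A, 10 H2B, 5 H3 and 5 H4 genes. RefSeq lists 69 such symbols, and the other 34, which could not be paired with an identifier in the count tables, were not analysed here. Among the 35 members, 33 had at least 1 count in some library, and 25 passed the filter on low counts and were tested.

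Core histones form the protein spool around which DNA is wrapped, and linker histones bind the DNA where it enters and leaves the spool. Cells make most of these proteins during S phase from intronless genes whose mRNAs end in a conserved stem-loop instead of a poly(A) tail. The stem-loop is bound by SLBP and is needed for 3′ end cleavage, translation and rapid decay of the mRNA when replication stops, whereas some of these genes are known to give polyadenylated transcripts in differentiated or arrested cells. Libraries made by poly(A) selection therefore capture these mRNAs only in part.

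The RNA was that of 1 fibroblast line, WI-38 (human lung, diploid), used between population doubling levels 15 and 25, in 4 groups of 3 libraries each. Proliferating cells received siCtrl, a pool of non-targeting siRNAs, and were grown for 8 days with DMSO, the vehicle of etoposide. The other groups received siCtrl, siNTRK2 (a pool against the mRNA for the receptor TrkB) or siBDNF (a pool against the mRNA for its ligand BDNF) and were then made senescent with 50 µM etoposide, a topoisomerase inhibitor, over 8 days; each pool was used at 25 nM. The comparisons ask how senescence changes these mRNAs and whether loss of TrkB or its ligand changes them in senescent cells.

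Every member carried the histone stem-loop. The motif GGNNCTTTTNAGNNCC was found on the sense strand within 150 bases after the stop codon in 35 of 35 members. Among all 19305 protein-coding genes searched in the GRCh37 annotation, these 35 members included, 39 held it (0.202%). The forms below are shown because they are the element that sets these mRNAs apart; capitals mark the 6 bases on each side that can pair, and the lower-case letters the 4 bases of the loop.
H2AC6, chr6:26124897-26124912, plus strand, and 20 other members: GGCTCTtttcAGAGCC
H2BC12, chr6:27114145-27114160, minus strand, and 6 other members: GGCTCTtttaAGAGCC
H4C8, chr6:26285359-26285374, minus strand, and the other 4 H4 genes: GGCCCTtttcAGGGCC
H2AC11, chr6:27101294-27101309, plus strand: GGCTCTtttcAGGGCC
H2AC20, chr1:149858941-149858956, plus strand: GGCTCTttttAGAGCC
The loop lay between 22 bases (H4C11) and 67 bases (H2AC18) after the stop codon. In 13 members the annotation also holds a transcript that runs more than 50 bases past the loop; 11 of these were tested, as were 14 of the other 22. H2AC6, for example, has such transcripts, and the annotation gives none for H2BC12 or H1-2. The poly(A) signal AATAAA occurred within 1000 bases after the stop codon in 15 of 35 members and in 73.5% of all protein-coding genes.

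The promoters of the members also shared sequence features. In the RefSeq promoters (250 bases before the start were searched on both strands; 33 members matched), the box CCAAT was present in 29 of 33 members (87.9%) and in 32.0% of 35116 promoters, and TATAAA in 23 of 33 (69.7%) and in 10.7%. The octamer ATTTGCAT, which POU2F1 binds, was found in 13 of 33 members (39.4%), of which 6 were H2A and 6 were H2B genes, and in 1.63% of all promoters. CCAAT was found in 0 of 4 H4 promoters. The searched bases of genes that stand head to head are largely the same, so 1 copy of a motif can count for both partners. H2BC4 and H2AC6, for example, were both counted as holding the octamer, and the stretch between them has 1. The shares of members are therefore not made of independent promoters. Some H2A and H2B genes stand head to head, and the short stretches between the starts of 2 such pairs, which include the abundant H2AC6 and H2BC21, are shown.
H2BC4 (minus strand) and H2AC6 (plus strand), chr6:26124155-26124372, 218 bases: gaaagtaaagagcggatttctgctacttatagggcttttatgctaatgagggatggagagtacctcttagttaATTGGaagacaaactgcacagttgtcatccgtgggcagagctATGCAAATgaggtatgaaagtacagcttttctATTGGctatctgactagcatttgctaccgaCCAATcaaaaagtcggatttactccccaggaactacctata
H2BC21 (minus strand) and H2AC20 (plus strand), chr1:149858233-149858467, 235 bases: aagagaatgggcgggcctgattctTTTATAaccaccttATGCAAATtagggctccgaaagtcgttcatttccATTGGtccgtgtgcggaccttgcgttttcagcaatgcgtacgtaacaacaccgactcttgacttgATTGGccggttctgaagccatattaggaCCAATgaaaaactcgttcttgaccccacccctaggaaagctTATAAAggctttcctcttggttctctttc
Both are written 5′ to 3′ on the plus strand of GRCh37, and capitals mark CCAAT, the octamer and TATAAA on either strand. The first stretch holds 3 CCAAT boxes and 1 octamer, and the second holds 3 CCAAT boxes, 1 octamer and 2 copies of TATAAA. A match of this kind is a description of the letters and not of a bound factor.

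The libraries held between 31567912 and 72328151 counts, and 3 counts, taken as the smallest detected value, equalled 0.0427 to 0.0916 CPM (read counts scaled to a common library size, after TMM normalisation); reads without molecular identifiers make this a limit of counting error only. NTRK2 was at 0 in the 3 siNTRK2 libraries and at 0.125 to 0.258 CPM in siCtrl senescent cells, and BDNF was at 47.1 ± 2.44 CPM after siBDNF against 162 ± 6.32 in siCtrl senescent cells (SD, n = 3). The 10 fibroblast markers summed to 39506 to 41205 CPM in proliferating cells, 32687 to 37020 in siCtrl senescent cells, 42893 to 45552 after siNTRK2 and 37662 to 39676 after siBDNF, and the siCtrl senescent libraries were the lowest and the siNTRK2 libraries the highest. By edgeR, 2 of them were higher and 7 lower with senescence, 6 higher and 1 lower after siNTRK2, and 2 higher and 6 lower after siBDNF. Over all tested genes, 29.8% were called higher and 28.3% lower with senescence. After siNTRK2 these shares were 11.1% and 10.0%, and after siBDNF 10.3% and 10.2%. Of 9 markers of other cell types, which summed to 55.9 to 62.1 CPM in proliferating cells and to 82.5 to 191 in the senescent groups, CD68 made up most of the sum and PTPRC was at 0 in proliferating cells and between 0.559 and 1.07 in senescent cells. Of the 7 tested, 4 were higher with senescence and 0 lower by edgeR (1 lower at an unadjusted p under 0.05, 0 by DESeq2), 1 was lower after siNTRK2 and 1 higher after siBDNF. The shares of all genes called are those given above. KRT5, an epithelial marker, and ALB, the liver marker, were at 0 in proliferating cells and at most 0.178 CPM elsewhere. EPCAM and CDH1 were listed as epithelial markers too, and their levels are not given here, so KRT5 does not stand for all of them. The part of all these markers in the histone results was not tested. The study states in general terms that cell experiments were repeated independently with their groups handled together, but the labels do not tie single libraries to such experiments, and the p-values measure the spread between these libraries. In bulk RNA, fewer cells of a type and less RNA per cell cannot be told apart.

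The summed CPM of the 35 members was several times higher in senescent than in proliferating cells and lower after siNTRK2. It was 94.2, 91.7 and 98.6 in the proliferating libraries, 534, 495 and 532 in siCtrl senescent cells, 363, 352 and 368 after siNTRK2, and 483, 473 and 490.2 after siBDNF. With TMM the 4 groups did not overlap, whereas with scaling by library totals the siBDNF libraries (501, 491 and 502) and the siCtrl senescent libraries (526, 499 and 524) did. The mean rose 5.48-fold with senescence, and stood at 69.4% of the siCtrl senescent level after siNTRK2 and at 92.7% after siBDNF. With siNTRK2 the sum was still 3.81-fold above that of proliferating cells. A single gene, H2BC12, gave 36.5% of the summed CPM in siCtrl senescent cells and 35.9% in proliferating cells, and without it the sum rose 5.43-fold and the siNTRK2 level was 69.0%. The summed CPM is a description with no test.

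**Figure D1:**
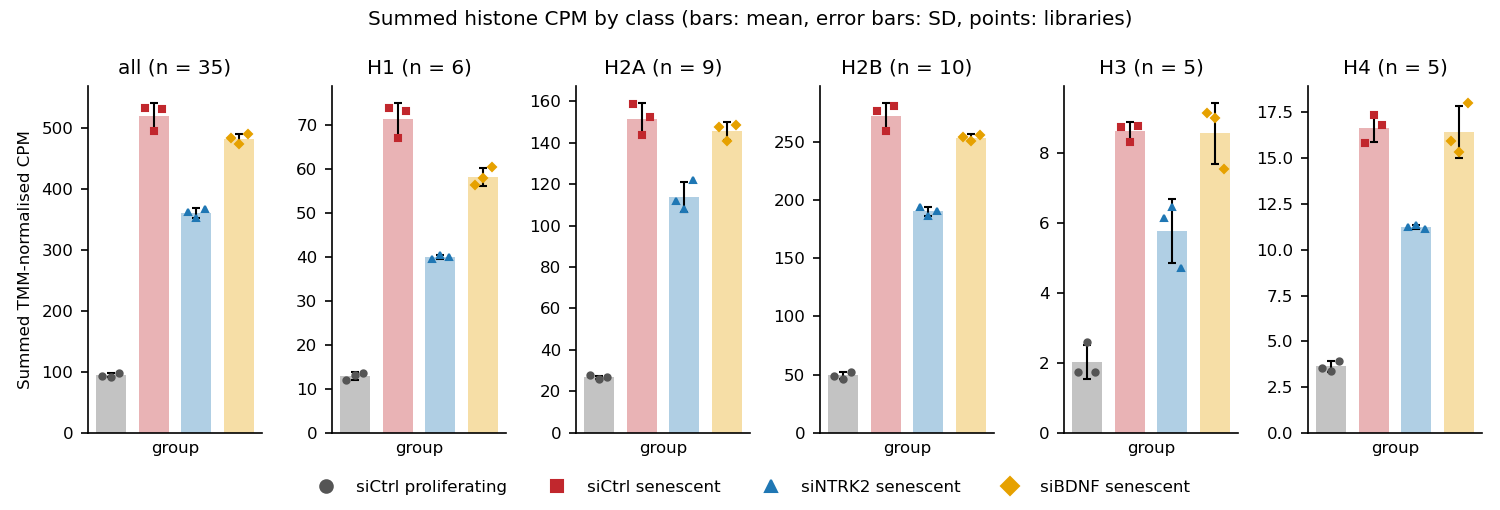
Summed TMM-normalised CPM (vertical axes, linear, from 0) of all 35 members and of each histone class in the 4 groups; bars are means of 3 libraries, error bars SD and points single libraries. In every panel the proliferating group is lowest, and the siNTRK2 libraries lie below the siCtrl senescent ones.

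All 5 classes had this order of siCtrl groups. The class sums cover only the paired genes: all 6 RefSeq symbols for H1, 9 of 17 for H2A and 10 of 18 for H2B. For H3 they cover 5 of 13 and for H4 5 of 15. The H3 sum holds both H3C14 and H3C15, whose near-equal counts are described below. The linker histone sum was 12.95 ± 0.920 CPM in proliferating and 71.3 ± 3.75 in siCtrl senescent cells, and was 39.9 ± 0.514 after siNTRK2 and 58.2 ± 2.05 after siBDNF (SD, n = 3 each). These are 56.0% and 81.6% of the siCtrl senescent level, the lowest shares of the 5 classes after either siRNA. Nearly all of this sum was H1-2 (70.9 ± 3.67 CPM in siCtrl senescent cells; SD, n = 3), since 4 of the 6 linker genes were under the filter, so that the class and H1-2 are nearly 1 measurement. For the core histones, the siNTRK2 level was 75.1% of the siCtrl senescent level for H2A, 69.9% for H2B, 67.0% for H3 and 67.5% for H4. After siBDNF the core classes were between 93.1% (H2B) and 99.3% (H3).

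Levels of different genes can be compared only per length. In siCtrl senescent cells H2BC12 was the most abundant member at 384 CPM per kb of merged exons, followed by H1-2 at 97.0, H2AC18 at 55.2, H2AC6 at 51.4, H2BC5 at 19.3 and H2BC21 at 16.5. The libraries of H2AC18 and H2AC6 overlapped in this measure and those of the other neighbours in this list did not. From H2BC11 (7.74 CPM per kb) to H2AC20 (3.29) lay 11 genes, whose neighbours in the order mostly overlapped, except that the libraries of H2BC4 and H4C11 only just failed to meet. The remaining 8 tested members, from H2AC25 at 1.85 CPM per kb down to H1-4 at 0.285, were still lower. These lengths come from a later annotation than the one used for the counts. Where a gene has long annotated transcripts, as H2BC4 has, its level per kb depends on which of them are made.

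**Figure D2:**
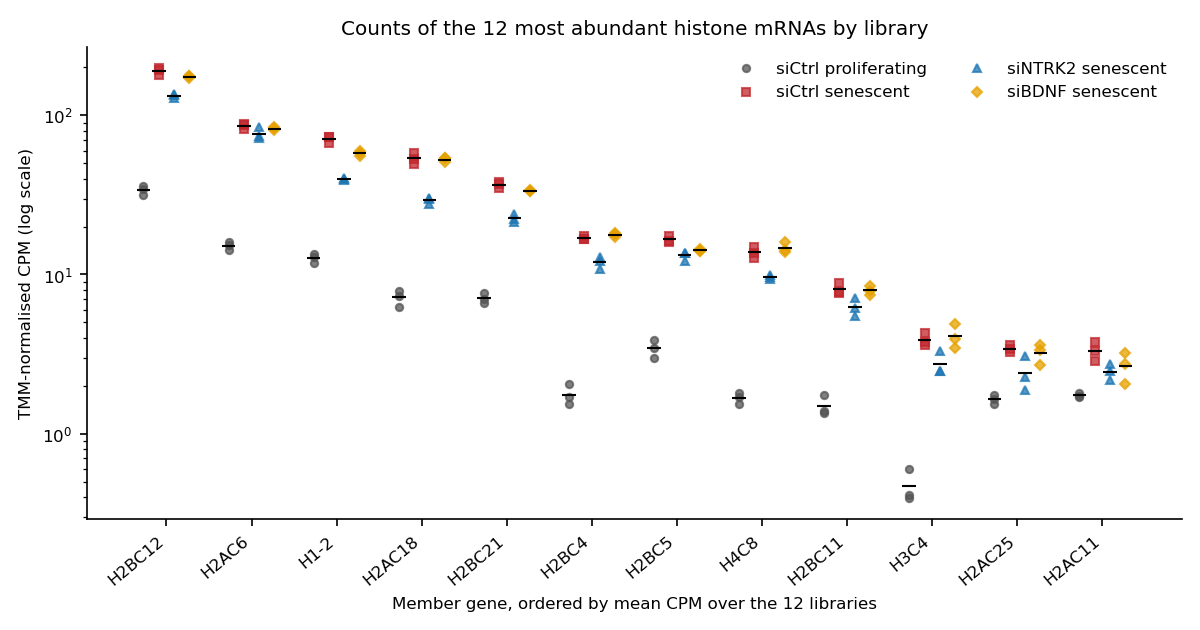
TMM-normalised CPM (vertical axis, log scale) of the 12 members with the highest mean CPM, in each of the 12 libraries; colours and symbols are groups and black bars group means. Proliferating libraries are lowest for all 12 genes. For H2AC6 the highest siNTRK2 library (84.2 CPM) lies inside the siCtrl senescent range, while for H1-2 and H2AC18 the siNTRK2 libraries are well apart from it.

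Most members had a higher CPM in the senescent than in the proliferating libraries, all made by poly(A) selection. In this and the other comparisons, a change in RNA level and a change in its polyadenylated share cannot be told apart. By edgeR's quasi-likelihood test with Benjamini-Hochberg adjustment over 21518 genes, 21 of 25 tested members were higher in siCtrl senescent than in siCtrl proliferating cells and 0 were lower (0 lower also at an unadjusted p under 0.05 and by DESeq2), where 29.8% of all tested genes were called higher and 28.3% lower. The median log2 fold change of the 25 members was 2.26, against 0.02 over all tested genes. A change of more than 1 on the log2 scale was seen in 20 of the 21, where 11.6% of all genes were called higher and 5.16% lower by that rule. In 20 members every senescent library lay above every proliferating library (31.5% of all genes).

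Among linker histones, H1-2 (chr6:26055968-26056698, minus strand), one of the main somatic H1 genes, was at 11.8, 12.9 and 13.5 CPM in proliferating cells and at 73.2, 66.6 and 72.8 in siCtrl senescent cells. The groups lay far apart, and the log2 fold change was 2.48 (SE 0.061, adjusted p = 7.96e-21, edgeR). H1-4, another somatic linker gene, was close to the detection limit, at 0.0179, 0.0285 and 0.108 CPM in proliferating cells and 0.517, 0.0861 and 0.0692 in siCtrl senescent cells. Its groups overlapped, and its call (log2 fold change 2.26, adjusted p = 0.0269, edgeR) rested on siCtrl senescent replicate 1, without which the log2 fold change was 0.75 with an adjusted p of 0.539 by the same edgeR test. The call was also lost without proliferating replicate 1 or 2.

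The 7 tested H2A genes, whose products pair with H2B in the spool, were all higher. H2AC7 had the largest log2 fold change of any member, from 0.0718, 0.199 and 0.271 CPM to 2.19, 1.999 and 1.97 (3.55, SE 0.32, adjusted p = 6.58e-10, edgeR). H2AC18 (chr1:149813505-149814478) went from 7.36, 6.28 and 7.87 to 58.3, 49.4 and 53.4 CPM, a log2 fold change of 2.92 (adjusted p = 3.61e-20, edgeR). H2AC6 (chr6:26124373-26139344) went from 15.95, 15.3 and 14.2 to 87.8, 82.4 and 86.8 CPM, or 2.49 on the log2 scale. For these 3 genes the senescent libraries were all far above the proliferating ones. H2AC19 was among the symbols not paired, and whether reads of similar H2A genes were counted for H2AC18 was not tested. The smallest change was that of H2AC11, with a log2 fold change of 0.92 from 1.74 ± 0.0620 to 3.30 ± 0.457 CPM (SD, n = 3).

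The 7 tested H2B genes were higher as well. H2BC12 (chr6:27114140-27114634) was at 34.4, 31.7 and 35.9 CPM in proliferating and at 194, 179 and 197 in siCtrl senescent cells (log2 fold change 2.48, SE 0.054, adjusted p = 6.05e-22, edgeR). H2BC4 went from 1.69, 1.54 and 2.06 to 17.4, 16.6 and 16.7 CPM, a log2 fold change of 3.30 (adjusted p = 7.65e-19, edgeR). In both genes the groups were far apart. H2BC21 (7.08 ± 0.495 to 36.6 ± 1.35 CPM), H2BC5 (3.44 ± 0.460 to 16.6 ± 0.836) and H2BC11 (1.496 ± 0.223 to 8.09 ± 0.694; SD, n = 3 each) had log2 fold changes between 2.29 and 2.41. Exons of H2BC4 overlap those of HFE on the opposite strand, and whether counting used strand is not given in the sources used here, so that reads of both genes cannot be told apart. HFE ranged from 16.1 to 18.2 CPM in proliferating and from 13.8 to 14.1 in siCtrl senescent libraries.

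H3 and H4 form the centre of the spool, and their tested genes were less uniform. H3C4 went from 0.395, 0.413 and 0.595 to 4.28, 3.77 and 3.62 CPM, a log2 fold change of 3.10 (adjusted p = 2.30e-12, edgeR). H3C14 and H3C15 had log2 fold changes of 2.02 and 2.04, but their counts never differed by more than 2 in a library, so that reads of these near-identical copies cannot be assigned and the pair amounts to 1 measurement. H3C12 (log2 fold change -0.36) and H3C13 (0.24) were not called, and the sign of each turned without 1 proliferating library (0.07 for H3C12 without replicate 2, -0.08 for H3C13 without replicate 1). H4C8 went from 1.81, 1.54 and 1.70 to 12.7, 14.97 and 13.6 CPM, with the groups far apart (log2 fold change 3.04, adjusted p = 8.29e-18, edgeR), and H4C16, which lies alone on chromosome 12, had a log2 fold change of 2.75. H4C11, at 1.61, 1.55 and 2.06 CPM against 2.24, 1.36 and 1.96, had overlapping groups and was not called (log2 fold change 0.10), nor was H4C3 at 0.0179 to 0.277 CPM.

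**Figure D3:**
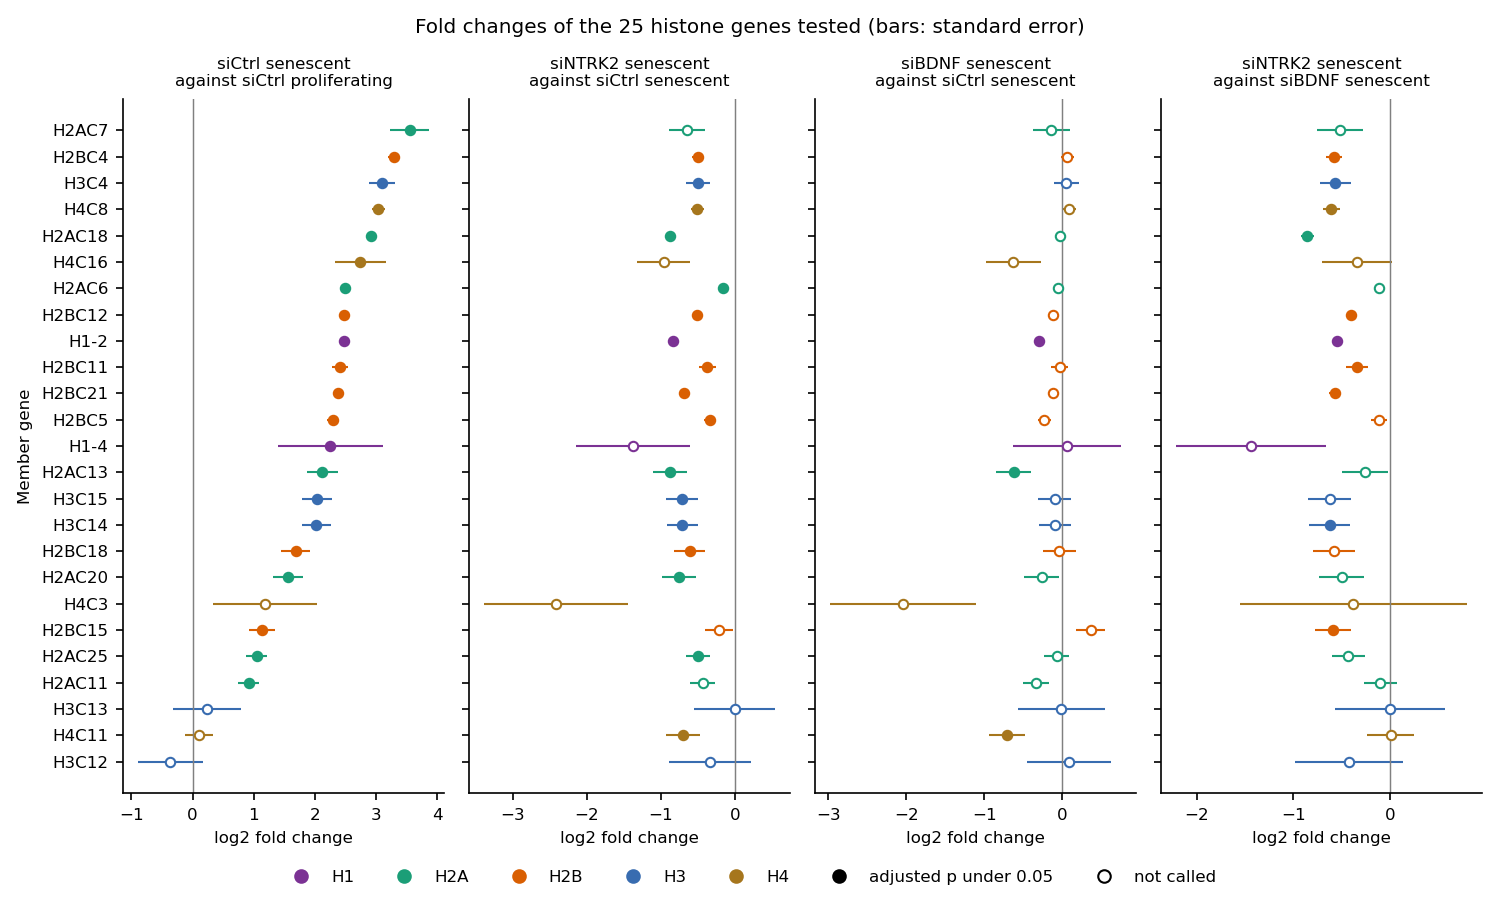
Log2 fold changes (horizontal axes; scales differ between panels) of the 25 tested members in the 4 comparisons, ordered by the senescence comparison; colours are histone classes, bars standard errors, and filled points have an adjusted p under 0.05. In the first panel 21 filled points lie right of 0; in the second, 17 lie left of 0; the third has 3 and the fourth 10, all left of 0.

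Most tested members were lower in senescent cells after siNTRK2, by less than 2-fold where called. Against siCtrl senescent cells, 17 of 25 tested members were lower and 0 higher by edgeR's quasi-likelihood test (0 higher also at an unadjusted p under 0.05 and by DESeq2, which called 19 lower), where 10.0% of all tested genes were called lower and 11.1% higher. The median log2 fold change of the members was -0.61, against 0.00 over all genes. In 21 members every siNTRK2 library lay below every siCtrl senescent library (16.1% of all genes). Of the 17 calls, 8 held whichever library was left out. Without siCtrl senescent replicate 1, siCtrl senescent replicate 3 or siNTRK2 replicate 3 the count was 11. By edgeR, 0 members were changed by more than 1 on the log2 scale with an adjusted p under 0.05 (0 by DESeq2 as well; 1, H4C3, with an unadjusted p under 0.05), where 0.390% of all genes were called higher and 0.567% lower by that rule.

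H2AC18 showed the largest decrease among the called members, to 29.7, 27.6 and 30.2 CPM from 58.3, 49.4 and 53.4, a log2 fold change of -0.88 (SE 0.069, adjusted p = 1.28e-09, edgeR). The linker gene H1-2 was at 39.2, 40.3 and 39.7 CPM after siNTRK2, against 73.2, 66.6 and 72.8 (log2 fold change -0.83, adjusted p = 9.63e-11, edgeR). H2AC13, a less abundant H2A gene, was at 1.002, 0.887 and 0.894 CPM against 1.69, 1.69 and 1.75 (log2 fold change -0.88, adjusted p = 0.00631, edgeR). In these 3 genes the siNTRK2 libraries were close to each other and all below the siCtrl senescent ones.

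The tested H2B genes, which span log2 fold changes of -0.69 to -0.22, were led in level by H2BC12 and H2BC21. H2BC12 was at 137, 128 and 134 CPM after siNTRK2 against 194, 179 and 197 (log2 fold change -0.51, adjusted p = 4.20e-08, edgeR), and H2BC21 at 22.5, 21.4 and 24.1 against 36.8, 35.2 and 37.9 (-0.69, adjusted p = 1.65e-08, edgeR). H2BC4 (-0.51), H2BC11 (-0.38), H2BC5 (-0.33) and H2BC18 (-0.61) were also called, while H2BC15 (-0.22) was not. The call of H2BC18 was lost in 9 of 12 fits without 1 library. HFE, which overlaps H2BC4, ranged from 16.2 to 18.2 CPM after siNTRK2. H2BC18 overlaps FCGR1A on the opposite strand, which was at 0.0180 ± 0.0312 CPM in proliferating cells, 0.802 ± 0.152 in siCtrl senescent cells and 0.522 ± 0.279 after siNTRK2 (SD, n = 3), and its part in the counts of H2BC18 was not tested. Among H3 and H4 genes, H4C8 was at 9.41, 9.70 and 9.87 CPM against 12.7, 14.97 and 13.6 (-0.51, adjusted p = 1.32e-04, edgeR). H3C4 (log2 fold change -0.51), the pair H3C14 and H3C15 (-0.71 each) and H4C11 (-0.70) were called too.

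H2AC6 stood out among the abundant members for the size of its change. It was at 73.7, 72.0 and 84.2 CPM after siNTRK2 and at 87.8, 82.4 and 86.8 in siCtrl senescent cells, with overlapping groups. Its log2 fold change was -0.16 (SE 0.057, adjusted p = 0.0446, edgeR), and this call was lost in 9 of 12 fits without 1 library. H2BC4, which shares the 218-base stretch shown earlier with H2AC6, was called in all 12.

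After siBDNF most members were not called. By edgeR's quasi-likelihood test, 3 of 25 tested members were lower and 0 higher, where 10.2% of all genes were called lower and 10.3% higher. DESeq2 called 4 lower and 0 higher, and at an unadjusted p under 0.05 by edgeR 6 were lower and 0 higher. The log2 fold change was below 0 in 19 of the 25 and above 0 in 6. The members' median log2 fold change was -0.09, against 0.00 over all genes. By edgeR, 0 members were changed by more than 1 on the log2 scale as well (0 by DESeq2; 1, H4C3, with an unadjusted p under 0.05), where 0.372% of all genes were called higher and 0.237% lower by that rule. The siCtrl senescent libraries are shared by the comparisons with proliferating cells, siNTRK2 and siBDNF.

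H1-2 was the clearest of the 3, at 55.8, 57.6 and 60.0 CPM after siBDNF against 73.2, 66.6 and 72.8 in siCtrl senescent cells (log2 fold change -0.29, SE 0.055, adjusted p = 3.89e-04, edgeR). It was called in every fit that left out a library. H4C11 was at 1.07, 0.960 and 1.35 CPM against 2.24, 1.36 and 1.96, all siBDNF libraries lying below the lowest control by a narrow margin (log2 fold change -0.71, adjusted p = 0.0308, edgeR). H2AC13 was at 1.01, 0.945 and 1.35 against 1.69, 1.69 and 1.75 (-0.62, adjusted p = 0.0490, edgeR). Only H1-2 remained when siCtrl senescent replicate 1 or 3 or siBDNF replicate 1 or 2 was left out. The abundant members H2BC12 (-0.11), H2AC6 (-0.05) and H2AC18 (-0.03) were not called.

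The siRNAs were also compared directly. Members were lower after siNTRK2 than after siBDNF in 10 of 25 cases and higher in 0 (edgeR's quasi-likelihood test; 0 higher also at an unadjusted p under 0.05 and by DESeq2), where 7.86% of all genes were called lower and 8.84% higher. The median log2 difference of the members was -0.50, and in 15 the groups did not overlap (17.3% of all genes). H2AC18 differed most of the called members, at 29.7, 27.6 and 30.2 CPM after siNTRK2 and 53.9, 50.7 and 53.7 after siBDNF (-0.85, adjusted p = 1.77e-09, edgeR). H3C14 (-0.62), H4C8 (-0.61) and H2BC15 (-0.59) came next. H3C15, the near-identical copy of H3C14, had the same log2 difference (-0.62) and was not called (adjusted p = 0.0550, edgeR), and the call of H3C14 was lost in 9 of 12 fits without 1 library. H2BC15, expressed at low level, was at 1.55 ± 0.178 CPM after siNTRK2 and at 2.33 ± 0.392 after siBDNF (SD, n = 3). H2BC5 (-0.11), H2AC6 (-0.11) and H4C11 (0.01) were not called. Without siBDNF replicate 1 the count was 6. By edgeR, 0 members differed by more than 1 on the log2 scale as well (0 by DESeq2 and 0 with an unadjusted p under 0.05), where 0.335% of all genes were called higher and 0.827% lower by that rule.

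Head-to-head partners differed in level. Between H2BC21 and H2AC20, which share the other stretch shown, the levels in siCtrl senescent cells were 16.5 and 3.29 CPM per kb, and between H2AC6 and H2BC4 they were 51.4 and 5.87. H2BC11 and H2AC11 had closer levels in this measure, at 7.74 and 6.70 CPM per kb. Their merged exons hold 1046 and 493 bases, and before division by length they were at 8.09 and 3.30 CPM. All these levels per kb depend on which annotated transcripts are made. In the pairs of H2AC13 with H2BC13 and of H2AC25 with H2BC26, the H2B gene was under the filter while the H2A gene was tested, and H2AC1 and H2BC1, which are known from testis, had no count in any library. With senescence, both partners of the 3 pairs in which both were tested were called higher. So were 21 of all 25 tested members and 29.8% of all tested genes, and pairs were not tested against other members.

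Members with and without an annotated transcript past the stem-loop were both among those that changed; the difference between them was not tested. With senescence, 11 of 11 tested members with such a transcript were called higher, with a median log2 fold change of 2.41, as were 10 of 14 without one, with a median of 2.03, where 29.8% of all genes were called higher. After siNTRK2, 9 of 11 and 8 of 14 were called lower, with medians of -0.51 and -0.71, where 10.0% of all genes were called lower. The summed CPM of the members with such transcripts rose 5.84-fold with senescence and that of the others 5.22-fold. The others summed to 281 CPM in siCtrl senescent cells, of which H2BC12, the most abundant member, gave 190 and H1-2 gave 70.9. Both are known to give polyadenylated mRNA, so the others are not a set without such mRNA. A group of 6 members known to give polyadenylated mRNA in arrested or differentiated cells (H1-2, H2AC6, H2BC4, H2BC5, H2BC12 and H2BC21) had 6 called higher with senescence and 6 called lower after siNTRK2, with medians of 2.48 and -0.51, against the same shares of all genes.

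RNAs that normally have no poly(A) tail were followed as a check on their carry-over into the libraries. The 7 that could be paired, among them RN7SK and RN7SL2, summed to 13.6 to 15.6 CPM in proliferating cells, 13.1 to 17.2 in siCtrl senescent cells, 13.99 to 24.7 after siNTRK2 and 14.8 to 25.0 after siBDNF. The ranges overlapped. Of the 5 tested, 0 were called in any of the 4 comparisons by edgeR and 0 by DESeq2; at an unadjusted p under 0.05 there was 1, higher, after siNTRK2 and 1, higher, after siBDNF. With senescence their log2 fold changes ranged from -0.10 (RN7SK) to 1.37 (SNORD3A).

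Replacement variants, most of which are made throughout the cell cycle from polyadenylated mRNA, were more often lower than higher with senescence. Of 12, 2 were called higher and 8 lower in siCtrl senescent than in proliferating cells (edgeR's quasi-likelihood test), with a median log2 fold change of -0.78, where 29.8% of all genes were called higher and 28.3% lower. H2AZ1, an H2A variant at promoters, was at 194 ± 2.08 CPM in proliferating and 59.6 ± 2.80 in siCtrl senescent cells (log2 fold change -1.70), H3-3B, which encodes a replacement H3, at 278 ± 9.78 and 139 ± 1.32 (adjusted p = 3.01e-16, edgeR), and H2AX, the variant phosphorylated at DNA breaks, at 68.1 ± 7.35 and 30.4 ± 0.619 (-1.16; SD, n = 3 each). CENPA, the centromeric H3, had a log2 fold change of -1.69. H2AJ rose from 27.7 ± 3.55 to 49.1 ± 4.27 CPM (0.83, adjusted p = 4.21e-10, edgeR) and was lower after siNTRK2 (-0.60) and siBDNF (-0.27), both called. H3-3B was called higher after siNTRK2 (0.26) and siBDNF (0.25). Among the 12, 1 was called higher and 3 lower after siNTRK2, where 11.1% of all genes were called higher and 10.0% lower. With siBDNF, 1 was called higher and 2 lower, where 10.3% of all genes were called higher and 10.2% lower.

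**Figure D4:**
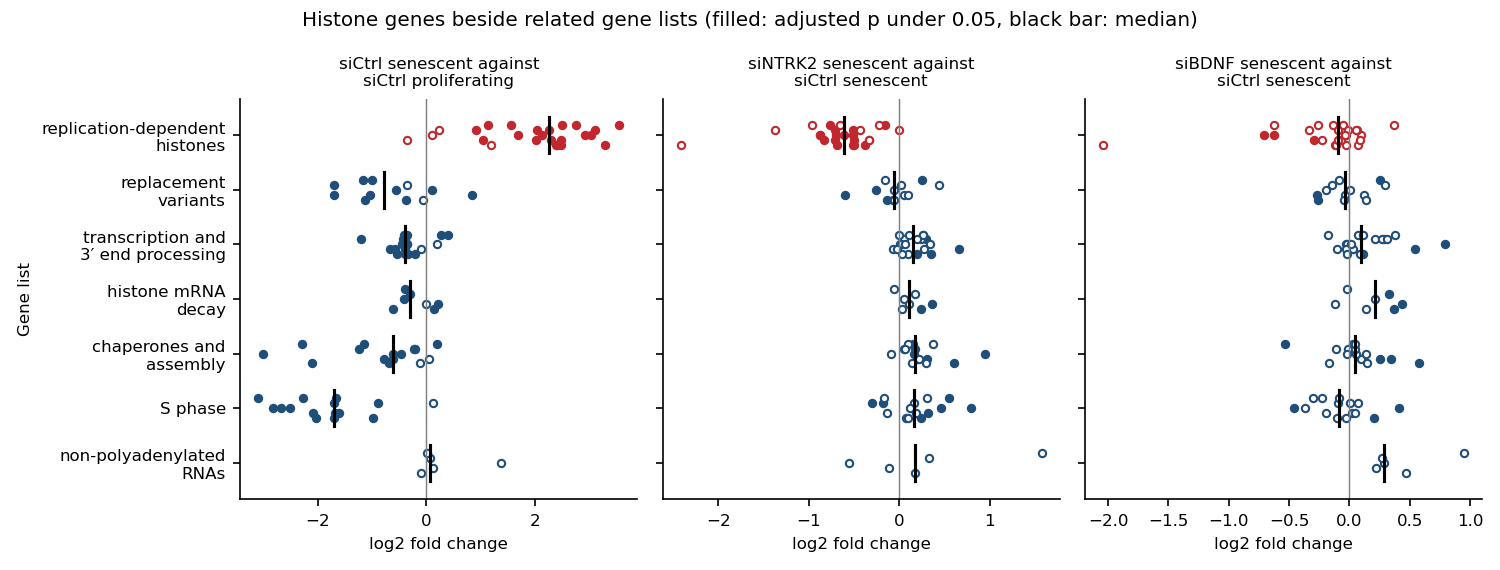
Log2 fold changes (horizontal axes; scales differ between panels) of the 25 tested members (red, top row) and of related gene lists (blue) in 3 comparisons; each point is a gene, filled points have an adjusted p under 0.05, and black bars are medians. With senescence the members' median is 2.26, that of replacement variants -0.78 and that of S phase genes -1.71; after siNTRK2 the members' median is -0.61 and the other medians lie between -0.06 and 0.18.

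Most genes that serve histone synthesis were lower with senescence. Of 20 genes for histone gene transcription and 3′ end formation, 16 were called lower and 2 higher in siCtrl senescent cells, with a median log2 fold change of -0.40, where 28.3% of all genes were called lower. They included SLBP, the stem-loop binding protein, at 43.1 ± 1.58 and 37.1 ± 1.16 CPM (SD, n = 3; log2 fold change -0.21), NPAT (-0.40), which activates histone promoters, CASP8AP2 (-0.58) and LSM11 (-0.40), which act in the histone locus body and in 3′ end cleavage, CCNE2 (-1.20) and E2F1 (-0.67). After siNTRK2, 5 were called higher and 0 lower (0 lower also at an unadjusted p under 0.05 and by DESeq2), among them CASP8AP2 (0.66), where 11.1% of all genes were called higher. After siBDNF, 3 were called higher (10.3% of all genes), CASP8AP2 (0.54) included, and 0 lower, although 1 was lower at an unadjusted p under 0.05 and by DESeq2. In the list of 7 genes for histone mRNA decay, 4 were called lower and 2 higher with senescence. Over all genes 28.3% were called lower and 29.8% higher. For siNTRK2, 2 of the 7 were called higher (11.1% of all genes), and for siBDNF 3 (10.3% of all genes). With either siRNA 0 were called lower, also at an unadjusted p under 0.05 and by DESeq2.

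Chaperones and S phase genes were lower in senescent cells. Of 15 chaperone and assembly genes, 12 were called lower and 1 higher with senescence (median log2 fold change -0.62), with ASF1B (-2.30), CHAF1B (-2.10) and NASP (-1.24), which deliver new H3 and H4 to DNA, among those lower, where 28.3% of all genes were called lower. After siNTRK2, 7 of the 15 were higher and 0 lower (0 also at an unadjusted p under 0.05 and by DESeq2), where 11.1% of all genes were called higher and 10.0% lower. Of 15 S phase genes, 14 were lower and 0 higher with senescence by edgeR (1 higher at an unadjusted p under 0.05 and by DESeq2), with a median of -1.71, and 5 were higher and 2 lower after siNTRK2. Of 4 genes that mark growth arrest or growth, CDKN1A, the p21 inhibitor of cyclin-dependent kinases (1.62), and CDKN2A (0.24) were higher with senescence, and LMNB1, a nuclear lamin (-4.20), and MKI67, a proliferation marker (-3.68), were lower. After siNTRK2, MKI67 was higher (1.72), as were LMNB1 (0.62) and CDKN2A (0.21), and CDKN1A was lower (-0.50); their part in the members' lower level was not tested. The lists were not tested against each other.

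The 10 members that were not tested held between 0 and 14 counts in any library. They were the linker genes H1-1, H1-3, H1-5 and H1-6, the H2A genes H2AC1 and H2AC21, the H2B genes H2BC1, H2BC13 and H2BC26, and H4C2. H2BC13 and H1-5 had the most, with 75 and 59 counts over all 12 libraries. No direction was read from these counts.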

How the data were processed

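Bulk mRNA was sequenced by the authors from poly(A)-selected, stranded TruSeq libraries. Per the submitters' processing notes, the authors trimmed adapters with cutadapt, aligned reads to hg19 (GRCh37) with STAR 2.4.0j and counted them per Ensembl gene with featureCounts 1.6.4. The deposited values are raw counts per gene, 1 table per library; strand and multi-mapping settings of the counting are not given in the sources used here. Identifiers were paired with symbols for 55538 of 57773 genes. Left out were 2 genes with older histone names that did not pair with a protein-coding symbol of these families. The members and lists were chosen with earlier results of these data known.

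Tests used edgeR 4.0.16 in R 4.3.3 (TMM, filterByExpr over 4 groups, quasi-likelihood test, all 12 libraries in 1 fit with 1 term per group, Benjamini-Hochberg over 21518 genes). A gene was called at an adjusted p under 0.05. Alternatives were DESeq2 1.42.0 (Wald test), other size factors and filters, the compared groups alone, a replicate block, a log2 fold change cutoff of 1, and leaving out each library; an offset for length and GC content (splines with 4 degrees of freedom) and leaving out H3C15 were chosen after seeing the data. The text describes the 12 members with the highest mean CPM, the 3 largest called increases and decreases per comparison, listed context genes, and a few others chosen after their values were seen (CDKN1A, CDKN2A, LMNB1, MKI67, RN7SK, SNORD3A, H1-4, H2BC15, H2BC18, H3C12, H3C13, H3C15, H4C3, H4C16, HFE, FCGR1A and the partners of head-to-head pairs). Gene structure came from GENCODE lifted to GRCh37, a later release than that used for counting, and promoters from RefSeq. The models were tested on simulated data. Total counts ranged from 31567912 to 72328151 per library. Libraries of 1 group differed by more than counting noise in all cases (chi-square per gene from 3.80 to 12.9).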

Additional observations from a re-analysis of the deposited data

Results flagged for a closer look

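For 10 members the change from siCtrl senescent cells differed between siNTRK2 and siBDNF, by the direct edgeR contrast of the 2 siRNAs (adjusted p under 0.05 in each), which cancels the shared siCtrl libraries. As log2 differences, siNTRK2 minus siBDNF, the values were -0.85 for H2AC18, -0.62 for H3C14, -0.61 for H4C8, -0.59 for H2BC15, -0.57 for H2BC4, -0.57 for H2BC21, -0.56 for H3C4, -0.54 for H1-2, -0.40 for H2BC12 and -0.34 for H2BC11. In each of the 10 the 3 siNTRK2 libraries lay below the 3 siBDNF libraries. H3C15, whose counts are almost those of H3C14, was not called (log2 difference -0.62, adjusted p = 0.0550 by edgeR). The calls of H3C14, H2BC15, H3C4 and H2BC11 were lost when some libraries were left out, and the other 6 were kept in all 12 such fits.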

How the results depend on the processing

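Of the member calls, 20 of 21 with senescence, 8 of 17 after siNTRK2, 1 of 3 after siBDNF and 6 of 10 in the direct comparison were kept in every fit with another tool, scaling, filter, choice of groups, block or offset and in every fit without 1 library, and no called member changed sign in any of these. The members' median log2 fold change with senescence was 2.11 with no filter on low counts, 2.11 with the replicate block and 2.11 with the length and GC offset. After siNTRK2 it was -0.51 with at least 10 counts in every library and -0.51 with only the compared groups, and after siBDNF it was -0.035 with library totals and -0.058 with the length and GC offset. With only the compared groups 5 members were called after siBDNF. With a log2 fold change cutoff of 1 added, 0 were called after siNTRK2, 0 after siBDNF and 0 in the direct comparison by edgeR (0 in each by DESeq2). The summed CPM after siBDNF was 498 with library totals. Leaving out 1 library gave 20 to 21 calls with senescence (medians 1.99 to 2.35), 11 to 18 after siNTRK2 (-0.68 to -0.50), 1 to 4 after siBDNF (-0.11 to -0.062) and 6 to 11 in the direct comparison (-0.55 to -0.40). Some uncalled log2 fold changes near 0 turned sign, and the cause was not tested. With senescence, H4C11 was at -0.10 with the length and GC offset and ranged from -0.057 to 0.27 without 1 library, H3C12 from -1.02 to 0.072 and H3C13 from -0.077 to 0.70. After siBDNF, library totals gave 0.0039 for H2AC6, 0.031 for H2AC18 and 0.024 for H2BC11, and the offset gave 0.0067 for H2AC18 and 0.0084 for H2BC11. Without 1 library, H2AC18 ranged from -0.079 to 0.035, H2BC11 from -0.074 to 0.046, H3C4 from -0.074 to 0.17, H2AC25 from -0.16 to 0.027 and H3C14 from -0.18 to 0.012. In the direct comparison H4C11 was at -0.030 with library totals and at -9.11e-04 with at least 10 counts in every library; without 1 library it ranged from -0.12 to 0.19 and H2AC11 from -0.26 to 0.040. Over all genes, scaling moved the direction of calls after siBDNF, of which 50.5% were higher with TMM, 69.3% with library totals and 26.98% with the length and GC offset. The offset gave 38.6% higher after siNTRK2 (52.6% with TMM), and library totals gave 37.7% higher in the direct comparison (52.9% with TMM). The same replicate numbers in different groups did not mark a shared origin in the labels, and their libraries did not deviate together, since the mean correlation of same-numbered libraries was 0.0076 and 0 of 18 pairs exceeded 0.1. With the replicate block the counts were 20, 17, 2 and 9. Members with few counts, such as H1-4 and H4C3, were near the detection limit of these libraries.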
